A study of Rattus norvegicus with 12 samples.

Results

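In smooth muscle cells of the rat aorta that carried an intact Thbs1 gene, stretch raised Aldh1a3 and lowered Vegfc, while neither response passed the test in cells without it. These were the 2 genes of 14825 tested whose stretch response differed between the genotypes at a false discovery rate (FDR) under 0.05. The quantity described is the interaction, the log2 stretch response of knockout (KO) cells minus that of wild-type (WT) cells, so a negative value means that a gene rose less or fell more without Tsp1. It was computed from all 12 libraries of the series, 3 in each of 4 groups, with the exon reads of 22081 annotated genes. Further genes had differences that did not pass the test, some of them larger in size than those of the 2 called genes. Most smooth muscle contractile genes were among them, with responses that were lower in KO than in WT cells.

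All groups were primary vascular smooth muscle cells from the aorta of Wistar rats at passages 5 to 8, grown with 20% serum and then starved of serum for 24 h on coated silicone elastomer. The WT static and WT stretch groups had an intact Thbs1. The Tsp1KO static and Tsp1KO stretch groups came from cells transfected with a plasmid for Cas9, GFP and a Thbs1 guide, sorted for GFP and cloned by limiting dilution. Stretched cells received uniaxial cyclic stretch of 20% strain at 1.0 Hz (60 cycles per minute) for a time that the labels do not state. The labels give neither the number of KO clones nor any cloning of the WT cells, so a genotype difference and a clone difference cannot be told apart. They also do not say that the 3 libraries of a group were separate cultures, so the p-values reflect the scatter of these samples alone, and that scatter may be technical. In pooled cells, fewer cells of a kind and less RNA per cell cannot be told apart.

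Thrombospondin-1 (Tsp1), the product of Thbs1, is a secreted matricellular glycoprotein that binds matrix proteins, integrins and other cell surface receptors, and it can activate latent TGF-beta. Vascular smooth muscle cells sense cyclic stretch through integrins, the actin cytoskeleton and stretch-gated channels. Signals from these reach serum response factor with its myocardin-family coactivators, which drive contractile genes through CArG boxes, and YAP and TAZ, which act through TEAD proteins. Whether the transcriptional response to stretch depends on Tsp1 is the question that the contrast addresses.

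The 12 libraries held 16.77e6 to 38.02e6 exon reads. The 4 libraries numbered 3 had an intron share of 9.15% to 11.29% of gene reads, below the 14.75% to 16.46% of the remaining libraries. In KO stretch library 3, 16.38% of exon reads crossed an exon junction, against 28.07% to 29.84% elsewhere. Libraries that carried the same number deviated together, clearly so only for those numbered 3. Library number was a block in the model. The 11 smooth muscle markers summed to 7390 to 8350 counts per 1e6 reads (CPM) in WT static, 8050 to 9500 in WT stretch, 6410 to 7700 in KO static and 5270 to 6680 in KO stretch libraries. Of the other cell types, 8 fibroblast markers summed to 454 to 577 CPM in WT and 1060 to 1520 CPM in KO libraries. Most of the KO sum came from Col14a1 and Lum. Endothelial markers stayed at 30.4 to 43.2 CPM, with Cldn5 at 0 in all libraries, and leukocyte markers at 21.8 to 33.7 CPM. Epithelial markers summed to 34.2 to 76.2 CPM, adipocyte markers to 1.05 to 1.85 CPM and osteochondrogenic markers to 2210 to 3560 CPM. Most of the osteochondrogenic sum came from Spp1, with group means from 2098 CPM in WT static to 2433 CPM in KO static, and Sp7, Bglap and Ibsp did not pass the count filter.

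The proximal promoters of the 2 called genes, and of the contractile gene Acta2 for comparison, are shown because CArG, TEAD and AP-1 motifs are the ones most tied to stretch and matrix signals. Each runs 5′ to 3′ on the gene's strand from 250 bases before to 50 bases after the start of the gene, from RefSeq on build GRCr8. Aldh1a3 is at chr1:129427594-129427893, Vegfc at chr16:44560838-44561137 and Acta2 at chr1:241172454-241172753, all on the minus strand. Capitals mark the letters GGAATG, the core that TEAD proteins bind.
Aldh1a3: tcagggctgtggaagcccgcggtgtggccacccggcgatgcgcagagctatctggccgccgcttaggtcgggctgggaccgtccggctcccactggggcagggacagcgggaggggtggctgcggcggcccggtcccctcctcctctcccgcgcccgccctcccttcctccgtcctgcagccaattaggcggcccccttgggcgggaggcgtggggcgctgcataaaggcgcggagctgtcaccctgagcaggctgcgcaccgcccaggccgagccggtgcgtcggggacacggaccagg
Vegfc: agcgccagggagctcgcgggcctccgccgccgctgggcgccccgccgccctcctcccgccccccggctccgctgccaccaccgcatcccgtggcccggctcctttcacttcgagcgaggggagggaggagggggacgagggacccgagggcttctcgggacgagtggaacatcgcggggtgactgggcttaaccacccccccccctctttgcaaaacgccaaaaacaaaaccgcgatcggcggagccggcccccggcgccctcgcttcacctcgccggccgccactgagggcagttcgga
Acta2: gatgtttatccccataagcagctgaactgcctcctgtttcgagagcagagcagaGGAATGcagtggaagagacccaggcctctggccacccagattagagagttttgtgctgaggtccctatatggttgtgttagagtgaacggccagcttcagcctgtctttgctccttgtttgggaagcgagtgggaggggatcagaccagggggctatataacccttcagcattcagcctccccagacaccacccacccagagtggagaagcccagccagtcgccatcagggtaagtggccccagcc

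In Acta2 the GGAATG letters lie at -196 to -191 from the start. Neither the Aldh1a3 nor the Vegfc window holds GGAATG, the AP-1 letters TGANTCA or a strict CArG box on either strand. A CArG box was read strictly as CCWWWWWWGG, with W for A or T. Near matches to it, such as ccctatatgg and ccttgtttgg in the Acta2 window, were not counted. RefSeq gave a promoter for 10662 of the tested genes, and 11.2% of these hold GGAATG, 5.04% TGANTCA and 1.29% a CArG box, with both strands read and overlaps allowed. Of 19 contractile genes with a promoter, 5 hold the TEAD letters (those of Acta2, Cald1, Flna, Mylk and Tpm1). The AP-1 letters are in 3 (those of Actg2, Mylk and Smtn) and a strict CArG box is in 1 (Srf). Of 16 YAP/TAZ target promoters, 6 hold GGAATG. These matches describe letters in the window and were not tested against expression.

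Thbs1 itself (ENSRNOG00000045829, chromosome 3 from 109862117 to 109873466 in Rnor_6.0) responded to stretch in both genotypes. In WT cells libraries 1, 2 and 3 held 3183, 2708 and 2091 CPM static and 1704, 1556 and 1052 CPM stretched. In KO cells they held 588, 637 and 443 CPM static and 435, 419 and 283 CPM stretched. Every stretched library was below its static partner, and every KO library was below every WT library, although reads on the gene remained in the KO cells. The edgeR log2 change was -0.90 ± 0.07 (SE) in WT (FDR 2.88e-05) and -0.57 ± 0.07 in KO cells (FDR 0.000609). The interaction of 0.33 ± 0.10 did not pass the test (edgeR FDR 0.506). The place of the edit in the gene is not given in the labels, so these counts do not check the protein.

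Aldh1a3 (ENSRNOG00000052070, chromosome 1 from 127301128 to 127337882 in Rnor_6.0) encodes an aldehyde dehydrogenase that makes retinoic acid, a ligand of nuclear receptors. Its level was 16.6, 15.8 and 14.5 CPM in the 3 WT static libraries and 39.6, 41.3 and 32.9 CPM in WT stretch. In KO cells it was 32.6, 26.4 and 25.2 CPM static and 33.0, 32.0 and 26.9 CPM stretched. The WT groups did not overlap, the KO groups did, and every KO static library already stood above every WT static library, with a mean 1.80 times as high. Stretch raised Aldh1a3 by log2 1.28 ± 0.08 in WT cells (2.43-fold, edgeR FDR 1.5e-05), and the KO response was 0.13 ± 0.08 (FDR 0.434). The interaction was -1.15 ± 0.11, with a 95% interval from -1.39 to -0.91 and an edgeR FDR of 0.00357. The log2 difference between a stretched library and the static library of the same number was 1.26, 1.38 and 1.18 in WT and 0.02, 0.28 and 0.10 in KO cells.

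Vegfc (ENSRNOG00000011416, chromosome 16 from 40440207 to 40555576 in Rnor_6.0) encodes a growth factor of lymphatic endothelium. WT static libraries held 119, 111 and 123 CPM and WT stretch libraries 80.5, 77.4 and 79.9 CPM. KO static libraries held 29.1, 31.6 and 35.7 CPM and KO stretch libraries 34.2, 37.1 and 37.4 CPM. All 6 KO libraries lay below all 6 WT libraries, and the KO static mean was 0.273 times the WT static mean. Stretch lowered Vegfc by log2 -0.57 ± 0.06 in WT cells (edgeR FDR 0.000334), and the KO response was 0.17 ± 0.07 (FDR 0.214). The interaction was 0.74 ± 0.09, with a 95% interval from 0.53 to 0.94 and an edgeR FDR of 0.0353. The same-number differences were -0.56, -0.52 and -0.62 in WT and 0.23, 0.23 and 0.06 in KO cells, without overlap.

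Both called genes therefore fell in the class of lost responses, meaning that stretch passed the test in WT but not in KO cells. The classes of gained, reversed and changed-in-size responses each held 0 genes, since only the 2 genes called by edgeR were sorted into classes. Without adjustment 921 genes had an edgeR interaction p under 0.05. DESeq2 with the same block called 48 genes, of which 19 were lost, 15 gained and 3 reversed. The 2 calls were 0.0135% of the genes tested. By comparison, stretch within WT cells called 944 genes (6.37%) and within KO cells 656 genes (4.42%).

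The call on Aldh1a3 held in 20 of 21 other settings and was lost without the library block (edgeR FDR 0.827). Over the 12 fits that each left out 1 library its FDR ran from 0.0037 to 0.0373. Vegfc was called in 9 of 21 settings. Leaving out any 1 library kept it under 0.05 in 2 cases, without WT static library 2 (edgeR FDR 0.0362) and without KO static library 3 (0.0385 by the same test), and in the other 10 the FDR ran up to 0.159. Without the block it was 0.827, and with libraries 1 and 2 alone it was 0.117.

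**Figure D1:**
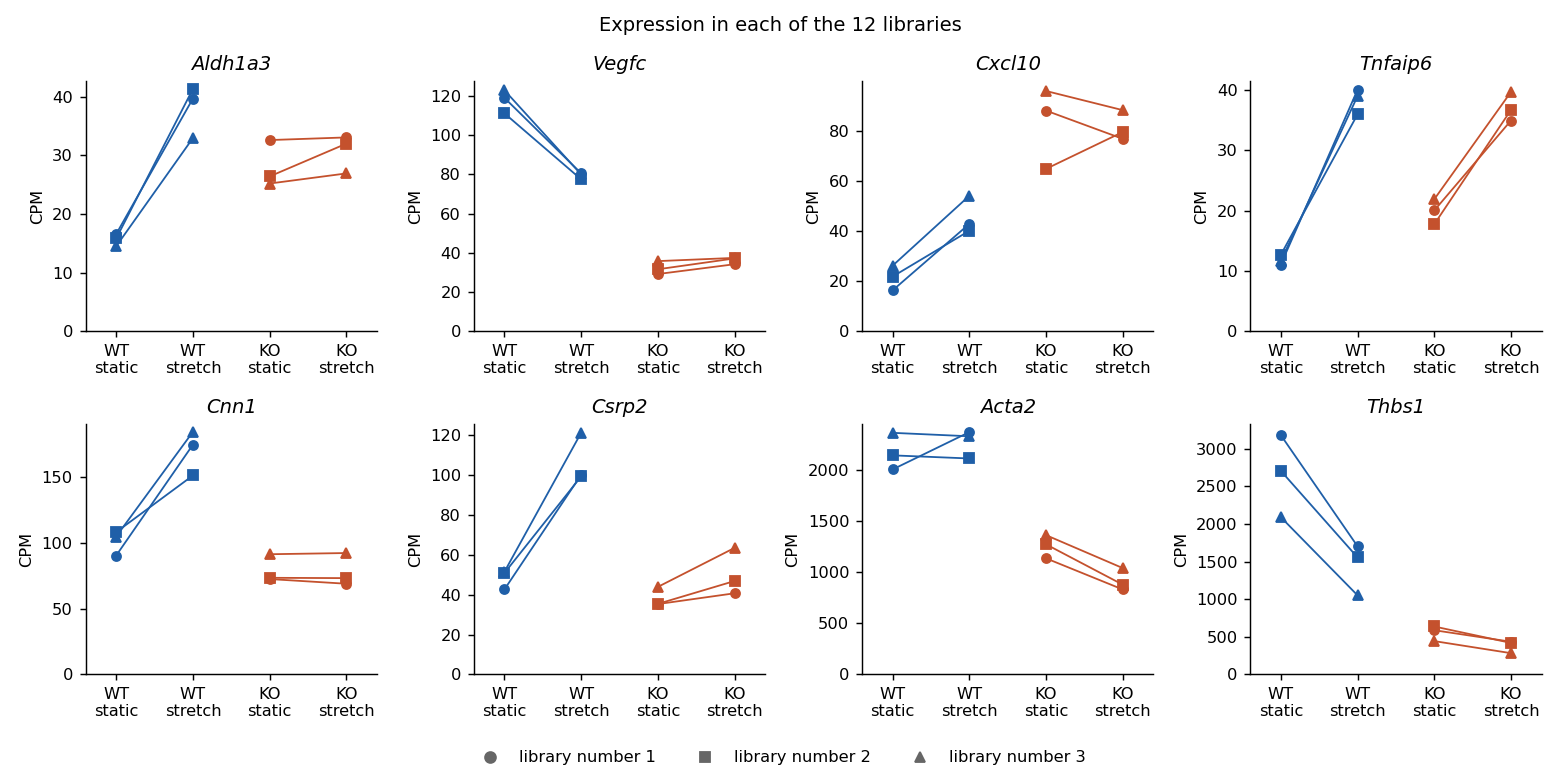
Level in CPM (y axis, from 0) of 8 genes in each of the 12 libraries, with static and stretched libraries of the same number joined, WT in blue and KO in red. The Aldh1a3 mean rose from 15.6 to 38.0 CPM in WT and was 28.0 and 30.6 CPM in KO cells, and every WT static library of Vegfc lies above every other library.

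A difference in passing between the genotypes was far more common than a tested difference. Stretch passed the test in WT only for 564 genes, and the interaction was called for 2 of them and had an unadjusted p under 0.05 for 189. It passed in KO only for 276 genes, of which the interaction was called for 0 by edgeR and had an unadjusted p under 0.05 for 106. A further 379 genes passed in both genotypes in the same direction, of which 59 had an unadjusted interaction p under 0.05. Ankrd1 alone passed in both with opposite signs. The precision of the interaction bears on these counts, because its SE had a median of 0.147 over all tested genes and of 0.0992 over the 5501 genes with a mean of log2 CPM 5 or more. For 10891 genes (73.5%) the 95% interval lay wholly between -1 and 1.

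The 18 genes next in order of interaction p, after Aldh1a3 and Vegfc, had an FDR of 0.0862 to 0.16 in edgeR and are given as values. Among the first 20 genes the interaction was below 0 for 15 and above 0 for 5. Stretch passed in WT only for 7 of them, in KO only for 8 and in both for 5. For all 20 the 3 KO pair differences lay clear of the 3 WT pair differences, which is what a small p selects. Over all genes tested, the KO differences lay below the WT differences for 1062 genes (7.16%) and above them for 865 genes (5.83%).

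Cxcl10 and Tnfaip6, both from the cytokine and NF-kB list, came next in order of p. Cxcl10, a chemokine of interferon signalling, was at 16.3, 21.8 and 26.2 CPM in WT static and 42.9, 40.1 and 54.1 CPM in WT stretch. It was at 88.1, 64.8 and 95.9 CPM in KO static and 76.8, 79.5 and 88.3 CPM in KO stretch. The WT groups stood apart and the KO groups overlapped, at a level above every WT library. Its WT rise was 1.10 ± 0.12 (edgeR FDR 0.00033), its KO response -0.01 ± 0.11 and its interaction -1.11 ± 0.17 (FDR 0.0862). The value is uncertain, since 38.1% of its exon reads mapped uniquely.

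Tnfaip6, a hyaluronan-binding matrix protein that inflammatory cytokines induce, rose in both genotypes but from different static levels. It went from 11.1, 12.7 and 11.6 to 40.1, 36.0 and 39.0 CPM in WT cells. In KO cells it went from 20.0, 17.7 and 21.9 to 35.0, 36.7 and 39.7 CPM. Stretched levels overlapped between the genotypes, while static levels did not. The responses were 1.71 ± 0.09 in WT and 0.90 ± 0.08 in KO cells, with an interaction of -0.81 ± 0.12 (edgeR FDR 0.0862).

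Loxl1, a lysyl oxidase that crosslinks elastin, also rose in both genotypes, and its KO static libraries lay above all WT stretch libraries. Its mean went from 192 ± 9.72 (SD, n = 3) to 323 ± 20.3 CPM in WT and from 422 ± 41.8 to 525 ± 44.4 CPM in KO cells, with an interaction of -0.43 ± 0.08 (edgeR FDR 0.146). The transcription factor Osr1 rose in WT cells by 0.36 ± 0.07 (edgeR FDR 0.00676) and had a KO response of -0.23 ± 0.06 (FDR 0.0707). Adamtsl3, a secreted matrix glycoprotein, fell in WT cells by -0.70 ± 0.08 with a KO value of -0.09 ± 0.08, and H2afy2, a macroH2A histone, fell in both, by -0.29 ± 0.07 and -0.81 ± 0.07. For 6 of the first 20 genes the KO static mean was at or above the WT stretch mean, and for 9 of 20 it was above the WT static mean.

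Some responses passed in KO cells only. Slco2a1, the prostaglandin transporter, fell in KO cells from 10.96, 9.69 and 9.94 CPM to 3.37, 3.38 and 2.79 CPM. In WT cells it was at 2.06, 1.92 and 1.46 CPM static and 1.67, 1.43 and 1.08 CPM stretched, so that the KO static level was 5.62 times the WT static level. The KO response was -1.69 ± 0.16 and the interaction -1.31 ± 0.25 (edgeR FDR 0.16). Maoa, a mitochondrial monoamine oxidase, fell in KO cells by -0.35 ± 0.06 (edgeR FDR 0.00678), and Gadd45b, a stress-response gene, by -0.63 ± 0.08 (FDR 0.00106). Siglec10, a sialic acid-binding lectin, fell in KO cells by -0.39 ± 0.07. Slc10a7 and Agpat5, an acyltransferase of phospholipid synthesis, rose in KO cells by 0.45 ± 0.07 and 0.47 ± 0.09.

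Ankrd1, a muscle ankyrin repeat protein and a common readout of YAP, was the gene that passed in opposite directions. It was at 60.0, 54.6 and 64.4 CPM in WT static and 64.6, 66.3 and 85.4 CPM in WT stretch. In KO cells it went from 78.0, 84.3 and 95.4 CPM to 64.6, 68.5 and 76.2 CPM. The changes of 0.26 ± 0.07 in WT (edgeR FDR 0.0364) and -0.30 ± 0.07 in KO cells (FDR 0.0229) were small. Stretched levels overlapped between the genotypes, and the interaction of -0.56 ± 0.09 did not pass (FDR 0.0981).

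**Figure D2:**
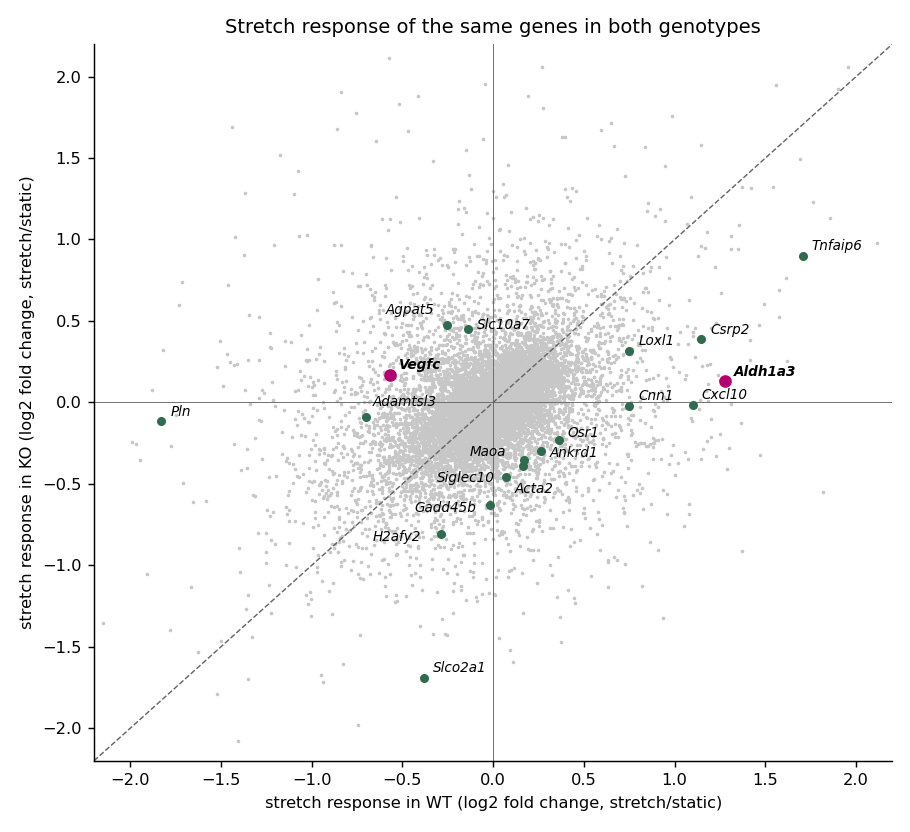
Log2 stretch response in KO (y axis) against that in WT cells (x axis) for the tested genes, in grey (81 lie outside the axes), with equal responses on the dashed line. Named genes are among the first 20 by interaction p, with the 2 called ones in magenta. Aldh1a3 sits at 1.28 in WT and 0.13 in KO, and Ankrd1 is on the side of opposite signs.

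Contractile genes had the lowest median interaction of the 25 functional lists, except with uniquely mapped reads alone, where the ribosomal protein list was lower. Of 24 tested, 22 had an interaction below 0, with a median of -0.33, against 51.4% of all genes tested and a median of -0.0066. The 3 KO pair differences lay below all 3 WT differences for 16 of the 24 and above for 0, where the background was 7.16% and 5.83%. The interaction was called by edgeR for 0 of the 24 (0.0135% of all genes tested), with an unadjusted p under 0.05 for 15 (6.21% of all genes tested). DESeq2 called 6 of the 24 (Acta2, Tagln, Cnn1, Lmod1, Csrp1 and Csrp2) and 48 of all 14825 genes. Stretch raised 5 of the 24 in WT cells and lowered 0, and in KO cells it raised 1 and lowered 8 (edgeR FDR under 0.05). Over all genes tested it raised 2.73% and lowered 3.64% in WT cells and raised 1.41% and lowered 3.02% in KO cells. The list was chosen with these data known and has no test of its own.

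Csrp2 passed in both genotypes, some members passed in 1 of them, and others passed in neither. Csrp2, a LIM protein of the smooth muscle cytoskeleton, was at 42.7, 50.9 and 51.5 CPM in WT static and at 100.2, 99.4 and 121 CPM in WT stretch. In KO cells it went from 35.3, 35.4 and 43.9 CPM to 40.7, 46.9 and 63.5 CPM. The stretched groups did not overlap between genotypes, and the rise was 1.15 ± 0.08 in WT (edgeR FDR 2.69e-05) against 0.39 ± 0.08 in KO cells (FDR 0.0221). The interaction was -0.76 ± 0.12 (edgeR FDR 0.0862).

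Cnn1, the actin-binding regulator calponin, was at 90.3, 108 and 105 CPM in WT static and 174, 151 and 184 CPM in WT stretch. KO static libraries held 72.4, 73.4 and 91.3 CPM and KO stretch libraries 68.9, 73.1 and 92.2 CPM, and these groups overlapped. The WT rise was 0.75 ± 0.09 (edgeR FDR 0.000367), the KO response -0.02 ± 0.09 (FDR 0.94) and the interaction -0.77 ± 0.12 (FDR 0.0862). Tagln, the actin-bundling protein SM22, rose by 0.29 ± 0.07 in WT cells (edgeR FDR 0.0337), and Csrp1, a LIM protein akin to Csrp2, by 0.45 ± 0.06 (FDR 0.000733). Their KO responses of -0.11 ± 0.07 and 0.09 ± 0.06 did not pass.

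Acta2, smooth muscle alpha-actin and the most used marker of the contractile state, changed in the KO cells instead. WT static libraries held 2003, 2140.4 and 2361 CPM and WT stretch libraries 2368, 2110.0 and 2327 CPM. KO static libraries held 1134, 1271 and 1361 CPM and KO stretch libraries 829.9, 877 and 1039 CPM. The WT groups overlapped, and each KO stretch library was below every KO static library. The KO fall was -0.46 ± 0.07 (edgeR FDR 0.00237), the WT response 0.07 ± 0.07 (FDR 0.61) and the interaction -0.53 ± 0.10 (FDR 0.146).

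Further contractile genes that fell with stretch in KO cells were Lmod1, an actin filament nucleator (-0.51 ± 0.07, edgeR FDR 0.00106), the myosin light chain Myl9 (-0.41 ± 0.08, FDR 0.00956) and the smooth muscle myosin heavy chain Myh11 (-0.43 ± 0.11, FDR 0.0384). Their WT responses were -0.04 ± 0.07, -0.05 ± 0.08 and 0.09 ± 0.11, none of which passed. Srf, the transcription factor that drives the contractile genes, fell in KO cells to the same small extent (-0.40, edgeR FDR 0.02), while its coactivators Myocd and Mrtfa had interactions of -0.14 and 0.05. Synpo2 and Mrtfa were the 2 members above 0. All 11 smooth muscle markers are also members of the contractile list, so their sum is not a separate observation. The fibroblast marker sum was higher in KO libraries under both conditions, and most of the KO sum came from Col14a1 and Lum. Col14a1 had a mean of 32.1 CPM in WT static and 685 CPM in KO static, and Lum 236 and 444 CPM. The epithelial markers, of which 6 were tested, had a median interaction of -0.33, with values from -1.09 to 0.70. The interaction was called by edgeR for 0 of the 6 and had an unadjusted p under 0.05 for 1, against 6.21% of all genes tested. Stretch lowered 0 of them in WT and 3 in KO cells (3.64% and 3.02% of all genes). The epithelial sum was 38.0 to 44.8 CPM in WT static, 34.2 to 43.0 in WT stretch, 63.6 to 76.2 in KO static and 45.5 to 64.2 in KO stretch libraries. The part of these markers in the result was not tested.

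**Figure D3:**
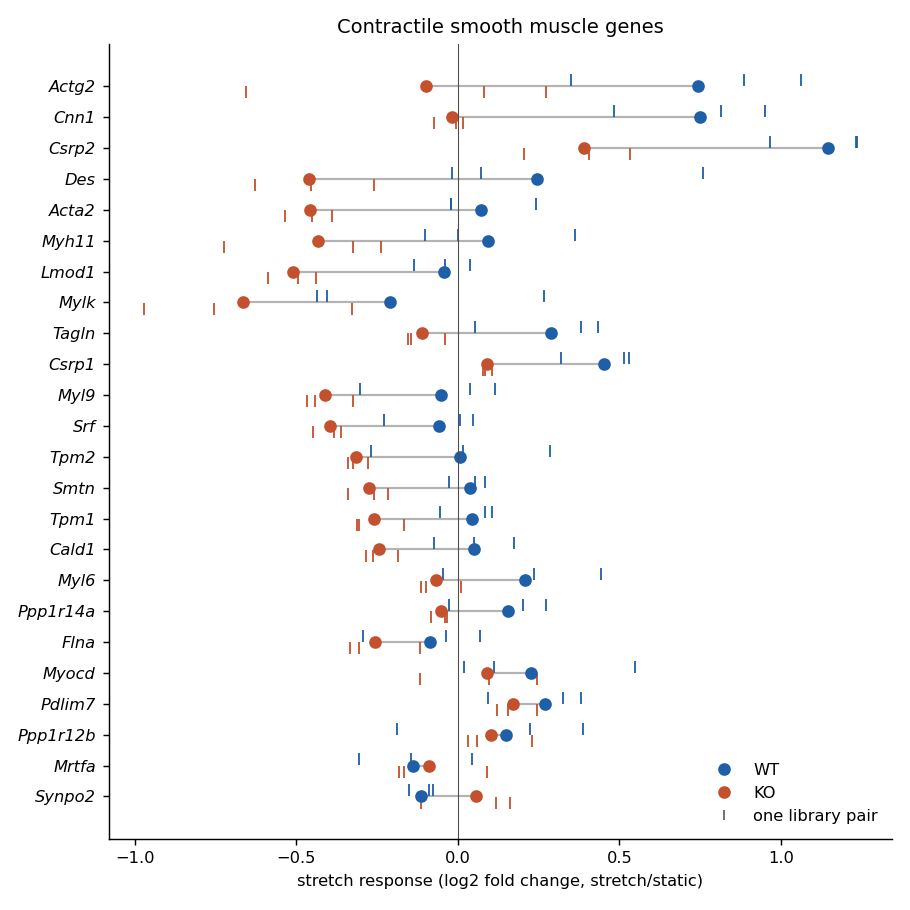
Log2 stretch response (x axis) of the 24 contractile genes in WT (blue dots) and KO cells (red dots), with a tick for each static and stretched library pair of the same number. The red dot is left of the blue one for 22 of the 24 genes.

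The median interaction of the contractile genes lay between -0.404 and -0.289 over all settings run, while the counts of members moved more. Without the library block 7 members had an unadjusted edgeR p under 0.05, against 15 with it. Over all genes tested that count was 336 without the block and 921 with it. The called members ranged from 0 to the 6 of DESeq2. Leaving out KO stretch library 3, the library with few junction reads, gave -0.366 with 1 member called by edgeR (Csrp2), and libraries 1 and 2 alone gave -0.319.

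YAP and TAZ targets as a list had a median interaction not far from that of all genes, at -0.06 over 24 genes and -0.11 to 0.01 over the settings. The interaction was called by edgeR for 0 of them and had an unadjusted p under 0.05 for 5, against 6.21% of all genes tested. Ankrd1 and Gadd45b, given above, belong to this list. The KO pair differences lay below the WT ones for 5 of the 24 targets and above for 1, against 7.16% and 5.83% of all genes tested. Stretch raised 1 and lowered 6 in WT cells (2.73% and 3.64% of all genes), and raised 0 and lowered 10 in KO cells (1.41% and 3.02%). Hippo pathway components had a median of 0.01. Among these Stk38l, a kinase of the pathway, rose by 0.85 in WT (edgeR FDR 3.1e-05) and by 0.46 in KO cells (FDR 0.0017), with an interaction of -0.39 (FDR 0.31).

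Immediate early genes, which report fresh signalling, had a median interaction of -0.16 over 27 genes, and 9 of them had KO pair differences below the WT ones, with 0 above (7.16% and 5.83% of all genes tested). Of the 27 interactions, 19 lay below 0 and 8 above, where 51.4% of all genes tested lay below 0. Stretch raised 5 of the 27 and lowered 4 in WT cells (2.73% and 3.64% of all genes). In KO cells it raised 3 and lowered 7 (1.41% and 3.02%). Atf3, a stress-induced transcription factor, was at 1.86, 0.961 and 1.58 CPM in WT static and 4.11, 3.29 and 2.38 CPM in WT stretch. It was between 0.803 and 1.05 CPM in all 6 KO libraries. The WT rise was 1.14 ± 0.29 (edgeR FDR 0.0361) and the interaction -1.12 ± 0.42 (FDR 0.712), which at this level of expression is not distinguished from 0 after adjustment. Ier3, a survival gene of the early response, rose by 0.64 in WT (edgeR FDR 0.00026) and by 0.27 in KO cells (FDR 0.041).

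Of 22 heat shock genes tested, stretch raised 11 in WT and 2 in KO cells, against 2.73% and 1.41% of all genes tested. The interaction was called for 0 of them by edgeR and had an unadjusted p under 0.05 for 3, against 6.21% of all genes tested. The median interaction of the heat shock genes was -0.14, and 21 of 22 values lay below 0, against 51.4% of all genes tested. Hsp90aa1, the inducible cytosolic chaperone, rose by 0.56 in WT (edgeR FDR 0.013) with a KO value of 0.15 (FDR 0.54). Hsph1, a cochaperone, rose by 0.72 in WT (edgeR FDR 4.4e-05) and by 0.64 in KO cells (FDR 9.4e-05).

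Cholesterol synthesis genes fell in both genotypes, 21 of 25 in WT and 23 of 25 in KO cells, against 3.64% and 3.02% of all genes tested, with median responses of -0.59 and -0.80. All 25 interactions lay below 0, against 51.4% of all genes tested, with a median of -0.21. The interaction was called for 0 of the 25 in edgeR and had an unadjusted p under 0.05 for 9, against 6.21% of all genes tested. Idi1, an isomerase of the pathway, fell by -0.43 in WT and -0.96 in KO cells. Srebf2, the transcription factor that drives the pathway, fell by -0.44 in both.

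Ribosomal protein genes also lay below 0 in all 25 tested members, against 51.4% of all genes tested, with a median of -0.19. Their KO pair differences lay below the WT ones for only 1 of the 25 and above for 0, against 7.16% and 5.83% of all genes tested. Interactions correlated with exon length across genes (Spearman's rho 0.133), with medians of -0.063 in the shortest 25% and 0.028 in the longest. With the length trend removed the ribosomal median was -0.13, and with uniquely mapped reads alone it was -0.43. With libraries 1 and 2 alone it was -0.11, and leaving out 1 library at a time it ran from -0.30 to -0.10. Its size therefore depends on how reads are counted and on which libraries are used.

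Interferon-response genes had a median interaction of -0.15 over 26 genes, 7 of them with KO pair differences below the WT ones and 1 above, against 7.16% and 5.83% of all genes tested. That median ran from -0.236 to -0.012 over the settings, and the value nearest 0 came from libraries 1 and 2 alone. Rsad2, an antiviral enzyme, had responses of 0.49 in WT and -0.37 in KO cells, neither of which passed. Collagens leaned the other way. Of 20 tested, 18 had an interaction above 0, where 51.4% of all genes tested lay below 0. The collagen median was 0.03 and ran from -0.04 to 0.14 over the settings. With the length trend removed their median was -0.0005. Col14a1 fell by -0.76 in WT (edgeR FDR 0.00024) and by -0.37 in KO cells (FDR 0.011). In the list of Notch, Wnt and vascular growth factors Vegfc was the 1 called gene of 40, and the median was -0.02. The medians of the other 15 functional lists lay between -0.11, for feedback regulators of MAP kinases, and 0.07, for ion channels and mechanosensors.

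**Figure D4:**
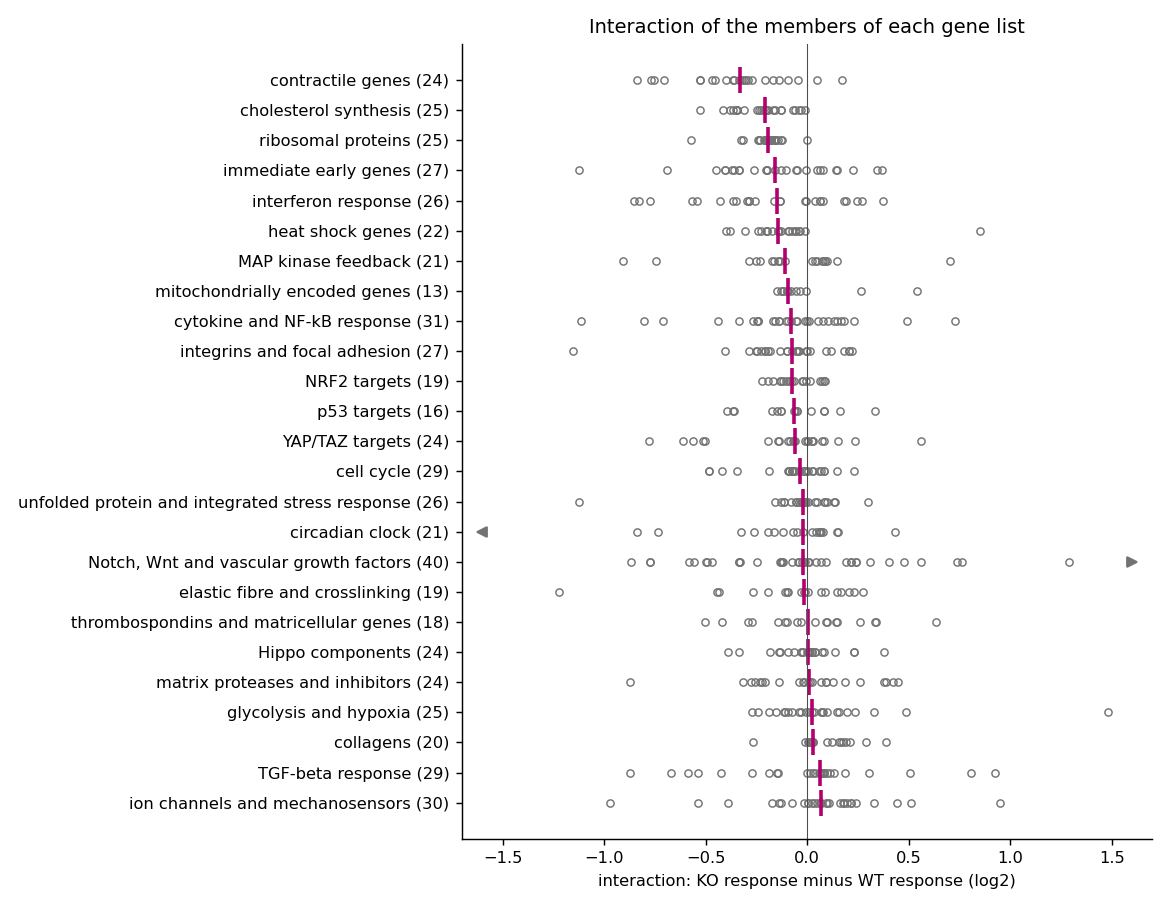
Interaction in log2 (x axis) of each tested member (open circles) of 25 gene lists, with the number of members in brackets, the list median as a magenta bar and arrowheads for members beyond 1.6. Contractile genes have the lowest median at -0.33, and most lists centre near 0.

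Among genes that changed at least 2-fold with stretch, responses in WT and KO cells mostly had the same sign. Of 44 such genes in WT, 40 kept their direction in KO cells, 20 had a 95% interval of the interaction that excluded 0, and 19 had one wholly within -1 and 1. Of 36 such genes in KO cells these counts were 35, 11 and 21. Of the 13 genes that changed 2-fold in both, 13 had the same sign and 0 had an interval that excluded 0. These intervals are not adjusted for the number of genes, and picking genes by a large response in 1 genotype favours a smaller one in the other.

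Of the 6 largest interactions of the WT set, 4 were in genes that were lower in KO than in WT static cells (Pln, Slc35f1, Colec10 and Akr1c14), and Oas1i and Aldh1a3 were higher there. Colec10, a secreted collectin, fell from 10.7, 9.97 and 11.6 CPM to 5.65, 5.29 and 4.55 CPM in WT cells and lay between 0.211 and 0.441 CPM in all 6 KO libraries. Its interaction was 1.48 ± 0.34 (edgeR FDR 0.285). Slc35f1 and the ketosteroid reductase Akr1c14 showed the same form, with interactions of 1.59 ± 0.52 and 1.21 ± 0.41. Pln, the phospholamban that restrains the sarcoplasmic calcium pump, had an interaction of 1.71 ± 0.29 (edgeR FDR 0.0981) but is uncertain, because 16.1% of its exon reads mapped uniquely and it overlaps Cep85l. Oas1i had 0 reads in all WT static libraries and only 0.298% unique exon reads, so no fold is given.

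In the KO set, Cav3, the muscle caveolin, went from 4.22, 5.40 and 4.37 CPM to 1.48, 1.62 and 2.26 CPM in KO cells and from 7.60, 8.89 and 10.4 CPM to 5.82, 6.54 and 7.98 CPM in WT cells. The KO fall was -1.38 ± 0.17 (edgeR FDR 0.000853), the WT response -0.41 ± 0.15 (FDR 0.146) and the interaction -0.97 ± 0.23 (FDR 0.331). Pde4b, a cAMP phosphodiesterase, rose in KO cells by 1.13 ± 0.27 (edgeR FDR 0.0323) with an interaction of 0.86 ± 0.36. Fam189a2, the transcription factor Tbx1 and Palmd had interactions of -1.17 ± 0.38, -1.13 ± 0.31 and -0.78 ± 0.34.

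Deptor, an inhibitor of mTOR, had the response that was closest to equal among genes changed 2-fold in both. It fell by -1.08 ± 0.08 in WT and -1.01 ± 0.08 in KO cells, and the interval of the difference ran from -0.16 to 0.31. Scd, the desaturase that makes monounsaturated fat, fell by -1.01 ± 0.13 and -1.16 ± 0.10 from a KO static level far above that of WT, with an interval from -0.52 to 0.21. Cilp, Fmo2 and Slc24a3 had differences between 0.09 and 0.11, but with intervals as wide as -0.71 to 0.93 for Slc24a3.

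**Figure D5:**
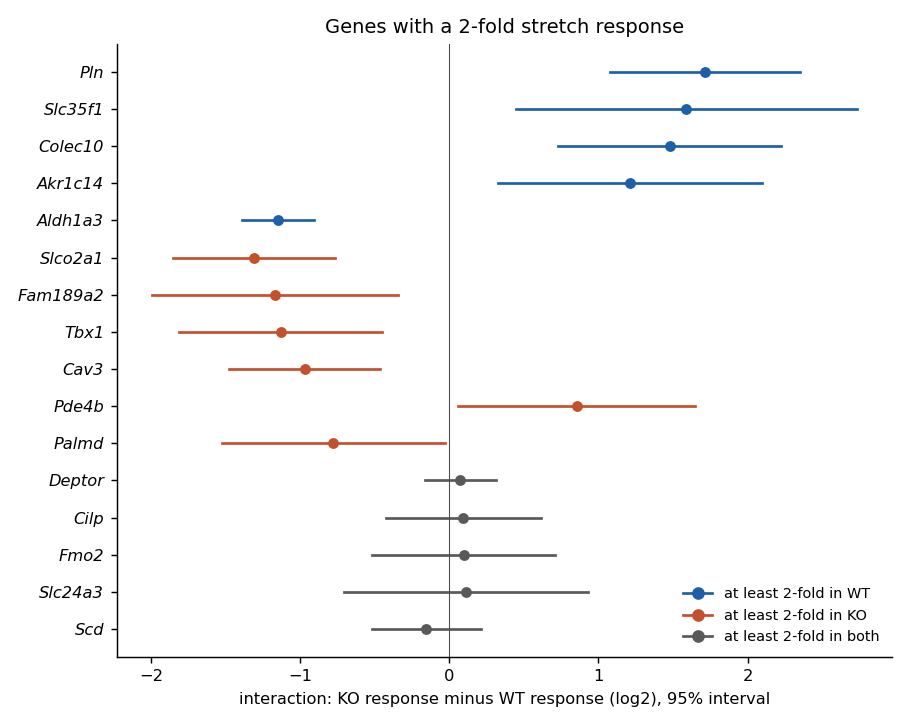
Interaction in log2 with its 95% interval (x axis) for genes that changed at least 2-fold with stretch in WT (blue), in KO (red) or in both (grey). Aldh1a3 has the narrowest interval of the blue genes, from -1.39 to -0.91, and all 5 grey intervals drawn include 0.

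Intron reads of the same libraries, which stem mostly from unspliced RNA, gave a second readout. The model fitted to them called 0 of 15577 genes (0%) in edgeR, with 727 at an unadjusted p under 0.05. Each of the first 20 genes had an intron interaction of the same sign as its exon interaction, and 8 of the 20 had an unadjusted p under 0.05. Some of the 20 values were near 0, among them Siglec10 (-0.003 ± 0.243) and Slc10a7 (0.08 ± 0.14). The 20 were picked by exon p, and the share with the same sign over all genes is not given here. Vegfc had an intron interaction of 0.57 ± 0.14 (edgeR unadjusted p 0.0023, FDR 0.949) and Aldh1a3 one of -0.46 ± 0.31 (unadjusted p 0.164, FDR 0.949). Tnfaip6 was at -0.75 ± 0.17. Aldh1a3 had 158 intron reads over the 3 WT static libraries and 269 over the 3 WT stretch libraries, so its intron value is imprecise. These reads come from the same cells and library preparations as the exon reads and are not a replicate.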

How the data were processed

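The 12 libraries were grouped as WT static, WT stretch, Tsp1KO static and Tsp1KO stretch by their labels. Per the labels' protocols, the authors took 500 ng of total RNA, selected poly(A) RNA, made directional libraries, ran a NextSeq 500 in paired-end mode (36 bases) and used CLC Genomics Workbench 12.0 to map to Rnor_6.0. In the deposited table a count is the whole number of exon, intron or junction reads of a gene, and multi-mapped reads are in the total exon count. The strand setting is not given in the sources used here. Of the deposited table, 211 per-sample columns were not used. Gene starts count from 0 in the file and are given here from 1.

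Exon counts of 14825 genes that passed filterByExpr (minimum count 10) were scaled by TMM and tested with the quasi-likelihood F test of edgeR 4.0.16 in R 4.3.3, with Benjamini-Hochberg adjustment over these genes. The model held a mean per group and a library-number block, with 6 residual degrees of freedom, and the script was tested on simulated data. The numbers were taken as pairing the samples because the 18 same-number pairs of libraries all correlated above 0.1 across genes. Group means were removed first, and r ran from 0.122 to 0.559. The 36 pairs with different numbers ran from -0.402 to 0.292. Only the pairs numbered 3, at 0.404 to 0.559, stood clear of that range, and those numbered 1 and 2 lay inside it. The common dispersion was 0.00961 with the block and 0.0437 without it. Pair differences are of log2 CPM with a prior count of 2. Levels are CPM after TMM. Precision is set by read depth and 3 samples a group. Alternatives were no block, a block within genotype, RLE and upper-quartile scaling, DESeq2 1.42.0, no filter, unique reads, removal of the length trend, libraries 1 and 2 alone and leaving out each library.

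The contrast, the 25 functional and 7 marker lists and the block were chosen with earlier results of these data known. Named genes are Thbs1, the called genes and the next by interaction p up to 20, the 6 largest interactions of 2-fold responders in each genotype and the 6 smallest in both (mean log2 CPM of at least 1), and at least the 2 smallest p in each list. Some genes that the rule picks are not reported here. Further contractile genes and members of the heat shock list were named after their values were seen.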

Additional observations from a re-analysis of the deposited data

Results flagged for a closer look

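The stretch response of Aldh1a3 differed between the genotypes by the test of the difference itself, an interaction of -1.15 on the log2 scale (edgeR FDR 0.00357), with all 3 KO pair differences below all 3 WT ones. Vegfc differed in the other direction, with an interaction of 0.74 (edgeR FDR 0.0353) and all 3 KO pair differences above the WT ones. Both genes also had KO static levels apart from WT static levels, and the part of that in the interaction was not tested.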

How the results depend on the processing

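The direction of the interaction was kept for Aldh1a3 and Vegfc in all 21 other settings. Without the replicate block edgeR called 0 genes higher and 0 lower, with 336 at an unadjusted p under 0.05, and 0 responses were lost; the estimates were -1.15 and 0.74 for the 2 genes. DESeq2 with the block called 23 higher and 25 lower, with 19 lost, 15 gained and 3 reversed. With no filter on low counts the numbers were 6 and 9, with 7 lost, 5 gained and 1 reversed. With the length trend removed they were 2 and 7, with 5 lost, 1 gained and 1 reversed. With libraries 1 and 2 only they were 1 and 2, with 1 lost and 2 gained. Leaving out 1 library at a time gave 0 to 1 genes higher, 1 to 4 lower, 1 to 3 lost, 0 to 1 gained and 0 to 1 reversed; an arm with 2 libraries shares the spread of the others. The block within genotype, RLE and upper-quartile scaling and unique reads kept 1 higher and 1 lower, the same 2 genes. Of the genes called by DESeq2, 19 were among the first 20 by edgeR's p, against 13 with no filter and 9 with the length trend removed. The cause of these differences was not tested.

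Among genes changed 2-fold in both genotypes, where the difference is near 0, its sign turned for Fmo2 with libraries 1 and 2 only (-0.21) and, leaving out 1 library, for Cilp (-0.12 to 0.32), Fmo2 (-0.057 to 0.305) and Slc24a3 (-0.13 to 0.31). Depth and 3 libraries a group limit the interaction most for genes of low level.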
